A study of Homo sapiens with 6 samples.

Results

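Mitochondrial ribosomal protein genes are the nuclear genes whose products are imported into mitochondria and build the ribosome that translates the messenger RNAs of mitochondrial DNA. They were taken here as every symbol in the deposited table made of MRPL or MRPS followed by a number, which gave 72 of the 17990 genes listed. Of these, 45 carried large-subunit (MRPL) symbols and 27 small-subunit (MRPS) symbols. A gene counted as measured when its counts averaged 20 or more across the 6 libraries; 11916 genes met this, all 72 members among them, and the lowest member mean was 135.3 counts. The cells were LNCaP, a human prostate cancer line that expresses the androgen receptor. The treated libraries came from cells given 10 nM dihydrotestosterone (DHT), a natural androgen, for 3, 6, 12, 24 or 48 h, and the control library from untreated cells at 0 h. Cells of all 6 groups were first held in medium with hormone-depleted serum. Each group was 1 library, so differences have no replicate check and carry no p-value, and time in culture and DHT cannot be told apart.

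The mitochondrial ribosome makes a small set of hydrophobic subunits of the respiratory chain and the ATP synthase, and all of its proteins are encoded in the nucleus and made on cytosolic ribosomes. Part of its proteins have counterparts in the bacterial ribosome, and the others were acquired later and clad the outside of a particle with little RNA. Making ribosomes is costly, and in many cell types the genes for ribosomal proteins follow growth signals, among them the transcription factor MYC. Symbols do not always give the place in the particle: MRPS18A and MRPS30 have small-subunit names but their proteins sit in the large subunit.

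A level is given in CPM, the count scaled to the same total over listed transcripts in every library, and a change is log2((CPM + 1) with DHT over (CPM + 1) at 0 h). A gene is said to have risen or fallen only when it passed a fixed size of 2-fold on that scale; ratios carry 95% intervals that cover counting error only. Library totals ran from 13179917 to 20587956 counts, and a count of 0 would allow up to 3 counts, or 0.146 to 0.228 CPM. The summed level of 7 luminal prostate markers was 7579 to 21610 CPM, against at most 0.895 CPM for 3 basal epithelial and 0.152 CPM for 3 leukocyte markers. COL1A1 reached 64.3 CPM and VWF 23.2 CPM, while the other fibroblast and endothelial markers stayed at or below 0.379 and 0.709 CPM. In the 12 h library the median level of genes on chromosome 4 was 10.4% of the mean of the 6 and 24 h libraries, over 386 genes, and 8.1% over 164 genes on the distal part of chromosome 15, against 104.0% over 10989 genes elsewhere. The 12 h values of MRPL1 and MRPS18C, on chromosome 4, and of MRPL46 and MRPS11, on distal chromosome 15, were therefore not used.

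Most mitochondrial ribosomal protein genes stayed within 2-fold of untreated cells, and the few that passed it did so in both directions. None of the 72 was past 2-fold at 3 h, when 0.747% of all measured genes were higher and 0.864% lower by that size. At 6 h 3 members rose and 0 fell, where 15.3% of measured genes rose and 3.01% fell. At 12 h 2 of the 68 members used rose and 0 fell (11.7% and 3.82% of genes), at 24 h 2 of 72 rose and 3 fell (10.5% and 10.8%), and at 48 h 4 rose and 0 fell (15% and 7.33%). The members that rose were MRPL42 and MRPL50 at 6, 12, 24 and 48 h, MRPL1 at 6 h, and MRPL13 and MRPS18A at 48 h. Those that fell were MRPL12, MRPL4 and MRPS34, which passed 2-fold at 24 h alone. They were also below 0 h in the 6, 12 and 48 h libraries. Their ratios to 0 h were 0.512, 0.662 and 0.528 at 6 h and 0.501, 0.54 and 0.606 at 48 h. With libraries scaled by the median of ratios or by TMM factors, 0 members fell and 3 rose at 24 h. At 6 h 2 or 1 fell. The shares of all genes past 2-fold were not counted under these scalings, so these counts have no background beside them.

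**Figure D1:**
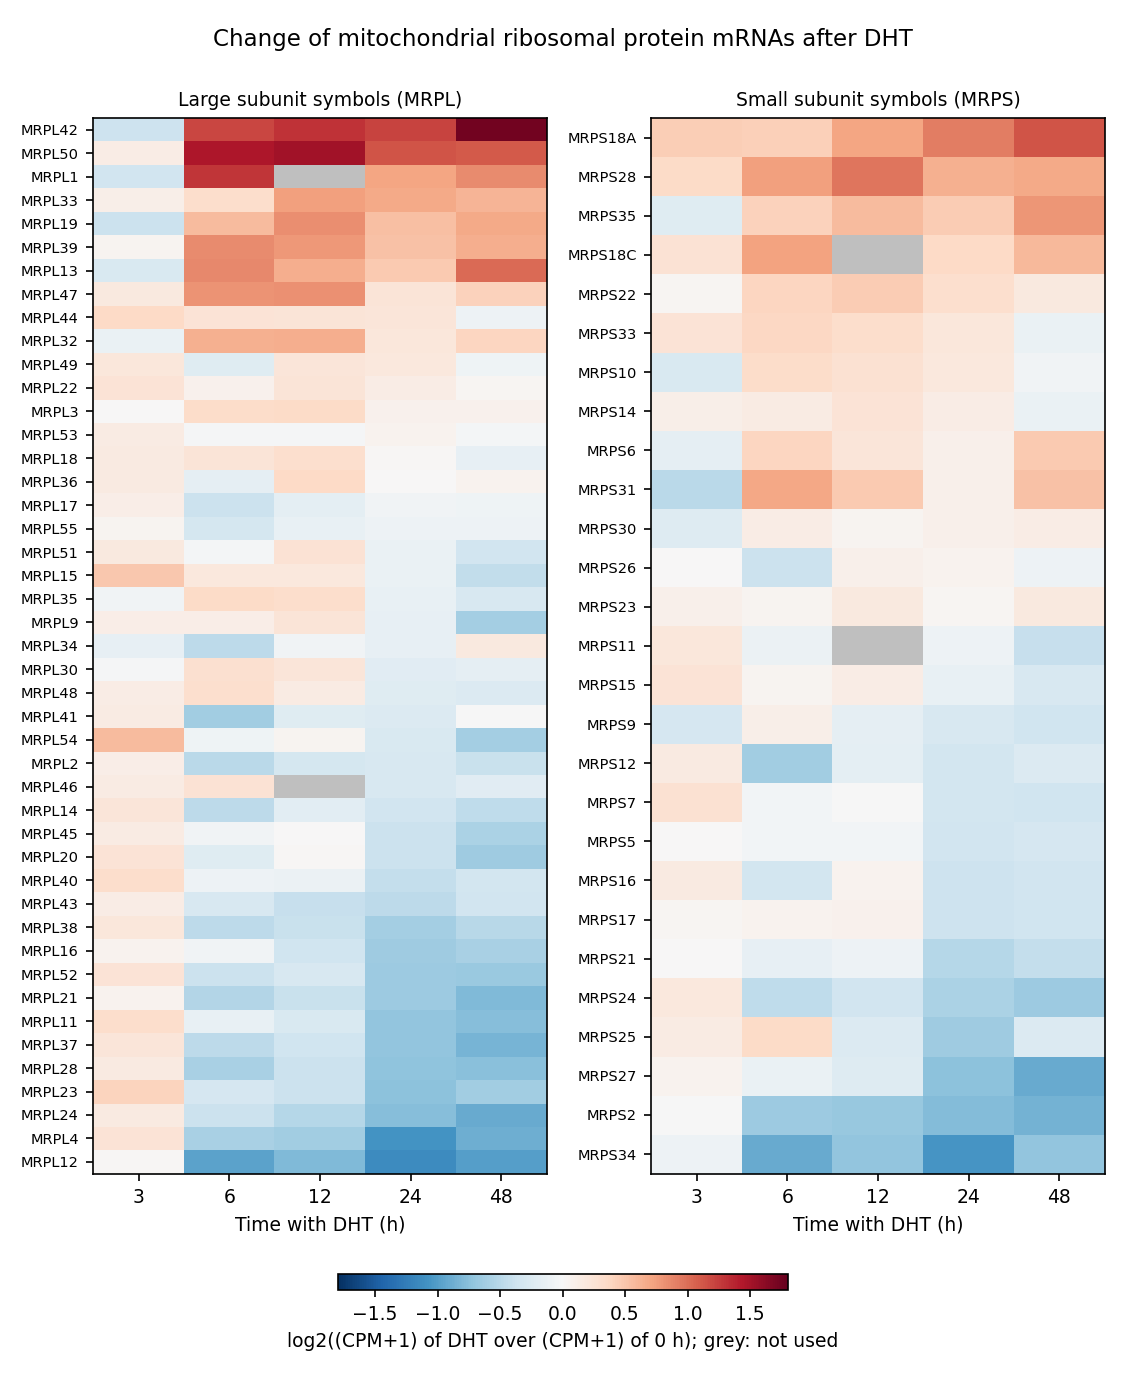
Change of each of the 72 members (rows) at each time with DHT (columns), as log2((CPM + 1) of the DHT library over (CPM + 1) of the 0 h library), 1 library per time. Rows are ordered by the change at 24 h within each symbol class, and grey cells are the 4 values at 12 h that were not used. MRPL42 and MRPL50 head the left panel with 1.21 and 1.13 at 24 h, MRPS18A heads the right one with 0.93, and MRPL12 and MRPS34 are at the foot with -1.13 and -1.06.

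The balance of smaller changes at the late times depended on the scaling: more members were lower than higher in CPM, and more were higher than lower with median-of-ratios or TMM scaling. Past a size of 1.5-fold, no member was higher or lower at 3 h (2.52% and 8.13% of measured genes were). At 6 h 10 members were higher and 7 lower by that size (28.5% and 13.4% of genes), and at 12 h 10 were higher and 4 lower (25.9% and 13.3%). At 24 h 6 were higher and 15 lower (21.6% and 24.2%), and at 48 h 11 were higher and 16 lower (25.4% and 22%). The 12 members lower by that size at both late times were MRPL11, MRPL12, MRPL21, MRPL23, MRPL24, MRPL28, MRPL37, MRPL4, MRPL52, MRPS2, MRPS27 and MRPS34, and the 6 higher at both were MRPL1, MRPL33, MRPL42, MRPL50, MRPS18A and MRPS28. The share of all genes past that size at both times was not counted, so these names are a list and not a trait of the members. Median-of-ratios scaling gave 10 higher and 5 lower members at 24 h and 12 higher and 11 lower at 48 h. TMM scaling gave 10 and 5 at 24 h and 13 and 10 at 48 h. The share of all genes past 1.5-fold was not counted under these scalings, which also shifted all genes. The median of all genes at 24 h was -0.09 in CPM, 0.06 with median-of-ratios and 0.08 with TMM scaling. The interquartile range of the members' log2 changes at 24 h was 0.59, against 1.05 over all measured genes.

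The earliest library differed from the later ones. At 3 h 56 of the 72 members lay above their 0 h level and 16 below, whereas 39.4% of measured genes lay above; the median log2 change was 0.14 for the members and -0.08 for all genes. MRPL54, a protein of the large subunit without a bacterial counterpart, had 64.3 CPM at 3 h against 42.9 CPM at 0 h, a change of 0.57. MRPL15, a large-subunit protein of the bacterial set, had 47.4 CPM at 3 h against 33.7 CPM at 0 h, and MRPS18A 72.9 against 53.6 CPM. At the other end MRPS31, of the small subunit, had 5.88 CPM at 3 h against 8.65 CPM at 0 h, a change of -0.49, and MRPL19 and MRPL42 were at -0.38 and -0.37. Of the 68 members with a usable value at every time, 33 had their highest level in the 3 h library, where 20.6% of genes had it, and only MRPS2 and MRPS34 had it at 0 h, where 21.2% of genes had it. Under median-of-ratios and TMM scaling 34 and 35 members were highest at 3 h, beside 22.6% and 24.5% of genes.

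After 3 h the number of members above 0 h was 35 of 72 at 6 h, 38 of 68 at 12 h, 29 of 72 at 24 h and 22 of 72 at 48 h, where 54.4%, 54.4%, 45.7% and 47% of genes lay above. Later medians were -0.03 at 6 h, 0.06 at 12 h, -0.14 at 24 h and -0.24 at 48 h, beside 0.08, 0.08, -0.09 and -0.06 for all measured genes; at 24 h the members' median was 0.01 with median-of-ratios scaling and 0.03 with TMM, which moved the median of all genes at 24 h to 0.06 and 0.08. Of the 68 members, 26 lay below 0 h in each of the 6, 12, 24 and 48 h libraries and 18 lay above in each, where 36.1% and 36.4% of genes did so. These libraries share the 0 h library as their base. Of the 26, 24 had been above 0 h at 3 h, MRPS2 and MRPS34 being the exceptions. The share of all genes that changed sides in this way was not counted, so this count has no background beside it.

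The summed level of those 68 members was 4543.5, 4976, 4099.5, 4414, 3737 and 3742 CPM in the untreated library and after 3, 6, 12, 24 and 48 h. It stood highest at 3 h, at 1.095 times the 0 h value (95% interval 1.083 to 1.107), and lowest at 24 and 48 h, at 0.823 (0.814 to 0.831) and 0.824 (0.814 to 0.833) times. With TMM scaling the 2 late ratios were 0.933 and 0.89. These are shares of each library: fewer of these mRNAs per cell, more of other mRNAs and a change in the mix of cells cannot be told apart in bulk RNA. The 43 MRPL members used stood at 0.804 (0.793 to 0.814) at 24 h and the 25 MRPS members at 0.856 (0.841 to 0.871), and at 48 h at 0.79 (0.778 to 0.801) and 0.882 (0.866 to 0.899).

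**Figure D2:**
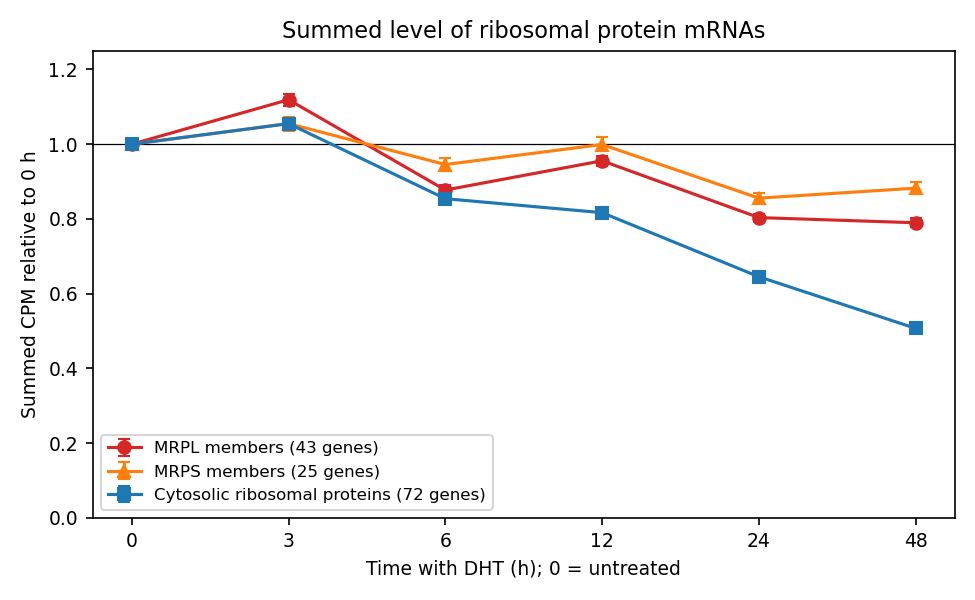
Summed CPM of 43 MRPL members, 25 MRPS members and 72 cytosolic ribosomal protein genes in each library, divided by the 0 h library, against time with DHT; genes on chromosome 4, distal chromosome 15 or of unknown chromosome are left out at all times. Bars are 95% counting intervals and mostly smaller than the symbols. At 48 h the 3 sets are at 0.79, 0.882 and 0.507 times their 0 h level.

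At 24 and 48 h the largest change each way was that of a large-subunit member, while at 3 h the lowest was that of MRPS31, of the small subunit. Of 45 MRPL members 2 rose and 2 fell at 24 h, with a median of -0.15, and of 27 MRPS members 0 rose and 1 fell, with a median of -0.09, where 10.5% of all genes rose and 10.8% fell; with median-of-ratios scaling the medians were 0.0001 and 0.06, and with TMM 0.03 and 0.09. Counting MRPS30 and MRPS18A with the large subunit, where their proteins are found, gave medians of -0.14 over 47 genes and -0.13 over 25. The 41 members whose numbers lie in the bacterial range (L1 to L36 and S1 to S21) had a median of -0.15 at 24 h and -0.31 at 48 h, and the 31 with higher numbers -0.09 and -0.10, with no test of the difference.

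MRPL42, a protein of the large subunit without a bacterial counterpart, had the largest increase at 24 and 48 h. Its level was 24.5, 18.7, 57.9, 61.6, 58.1 and 84.2 CPM in untreated cells and at the 5 times in turn, so the step lay between 3 and 6 h, a ratio of 3.1 (2.69 to 3.58), and the 24 h library did not differ from the 6 h one beyond counting error (1.003, 0.915 to 1.099). The ratio to 0 h was 2.37 (2.09 to 2.69) at 24 h and 3.44 (3.04 to 3.89) at 48 h. RefSeq lists 6 pseudogenes of MRPL42, and the counting method was not given, so reads may be shared with copies.

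MRPL50, also without a bacterial counterpart, also stepped up between 3 and 6 h, from a lower level. It had 6.98, 7.79, 20.8, 21.8, 16.5 and 16.2 CPM in the same order, and stood at 2.36 times the 0 h level at 24 h (1.87 to 3.004). MRPL1, which forms the stalk that helps spent transfer RNA leave the ribosome in bacteria, had 6.15, 4.61 and 16.4 CPM at 0, 3 and 6 h and 10.7 and 11.8 CPM at 24 and 48 h. Its ratio to 0 h was 2.67 (2.06 to 3.49) at 6 h and 1.75 (1.35 to 2.28) at 24 h. All 3 lay below the members' median level in untreated cells, 50.2 CPM, and 3 h with DHT was the lowest point of MRPL42 and MRPL1.

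Further large-subunit members were higher by less than 2-fold at 24 h. MRPL33, a short protein of the bacterial set, had 49.4 CPM at 24 h against 30.3 CPM at 0 h, a change of 0.69. MRPL19, of the bacterial set, was at 0.55 and MRPL39, without a bacterial counterpart, at 0.52. With a trend on GC content removed, as described further on, the 3 stood at 0.17, -0.15 and 0.11, so the direction of MRPL19 turned. MRPL13, of the bacterial set, had 12.6, 10.2, 23.9, 20.4, 17.8 and 26.6 CPM over the 6 times and passed 2-fold only at 48 h, at 2.11 times (1.76 to 2.54).

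MRPL12 fell most at 24 h. Its protein forms the flexible stalk that binds translation factors, and it is also known to bind the mitochondrial RNA polymerase. Its level was 173.1, 176.15, 88.6, 99.1, 78.3 and 86.7 CPM, so its 3 h level lay within counting error of 0 h (ratio 1.02, 0.961 to 1.08) and its 24 h level was 0.453 times the 0 h level (0.424 to 0.483). MRPL10, which anchors MRPL12 on the large subunit, has a line without a symbol and is outside the 72; its accession identified it. It had 86.9, 86.5, 55.7, 53.6, 53.6 and 51.9 CPM, a change of -0.69 at 24 h.

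MRPL4, whose bacterial counterpart lines the tunnel through which the new protein leaves, had 125.3, 149.0, 82.9, 80.8, 58.8 and 67.7 CPM and stood at 0.469 (0.435 to 0.505) at 24 h. MRPL24 and MRPL23, found around the mouth of that tunnel in bacteria, were at -0.76 and -0.73 at 24 h, and MRPL28, of the bacterial set, at -0.72. MRPL24 had 165.9, 186.2, 127.2, 115.65, 97.2 and 87.9 CPM, lower at each step after 3 h. MRPL37, without a bacterial counterpart, had the highest level at 0 h, 256.4 CPM, and 156.1 CPM at 24 h, a change of -0.71.

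Among small-subunit symbols MRPS34 and MRPS2 had the lowest changes at 24 h. MRPS34, a structural protein without a bacterial counterpart, had 132.9, 124.8, 70.2, 80.6, 63.05 and 80.6 CPM and stood at 0.474 (0.441 to 0.51) at 24 h. MRPS2, of the bacterial set, had 112.3, 112.0, 70.8, 69.3, 64.8 and 61.7 CPM, a change of -0.78 at 24 h. MRPS27, a protein with repeats that bind RNA, had 170.2, 178.0, 156.2, 144.5, 101.9 and 90.3 CPM and was at -0.73 at 24 h and -0.91 at 48 h. MRPS34 and MRPS2 were already low at 6 h, whereas MRPS27 moved mainly between 12 and 24 h, a ratio of 0.705 (0.663 to 0.75).

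MRPS18A stood apart from the other small-subunit symbols. It is 1 of 3 human proteins related to bacterial S18, and its level was 53.6, 72.9, 72.6, 88.2, 102.7 and 118.03 CPM. Its ratio to 0 h was 1.36 (1.24 to 1.5) at 3 h, 1.92 (1.76 to 2.09) at 24 h and 2.204 (2.02 to 2.41) at 48 h. The related MRPS18C, in the small subunit, was low, with 7.28, 8.93 and 12.7 CPM at 0, 3 and 6 h and 9.67 and 11.4 CPM at 24 and 48 h, a change of 0.36 at 24 h; MRPS18B was not analysed here. MRPS28, another protein of the small subunit, had 27.8, 35.6, 47.3, 55.04, 44.2 and 45.3 CPM, a change of 0.65 at 24 h. The 2 members on distal chromosome 15, MRPL46 and MRPS11, were at -0.28 and -0.09 at 24 h.

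**Figure D3:**
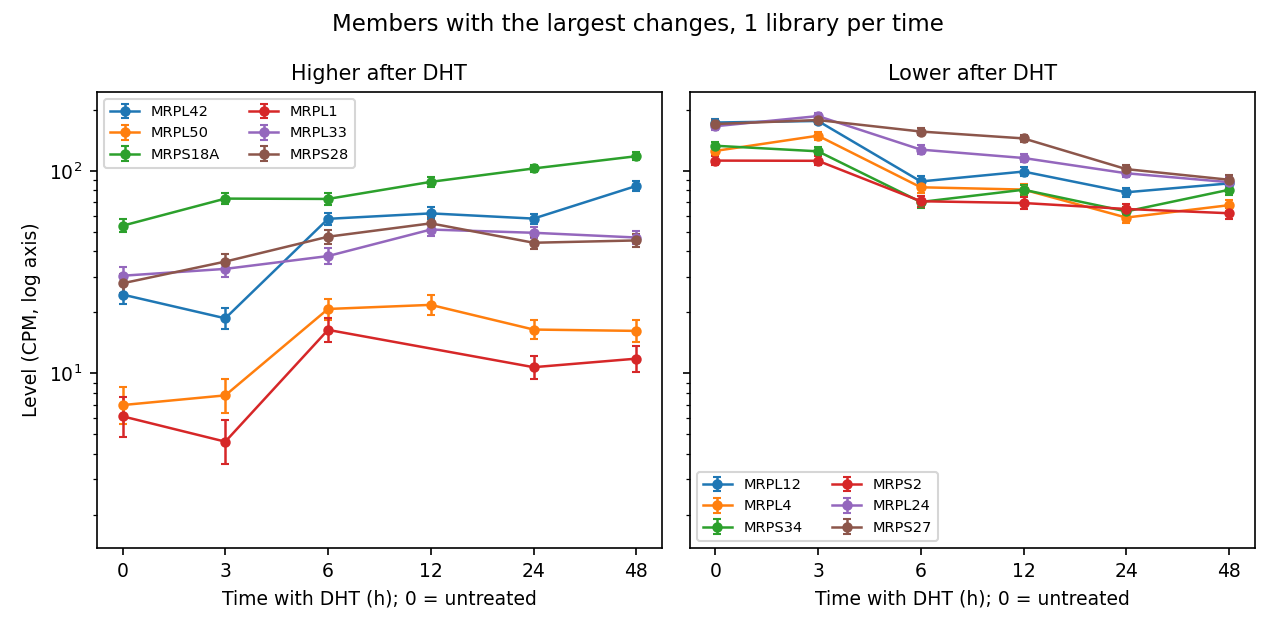
Level in CPM on a log axis of 6 members that were higher (left) and 6 that were lower (right) at 24 h, in the untreated library and after each time with DHT; bars are 95% Poisson intervals and lines join the 6 libraries. MRPL1 has no point at 12 h. MRPL42 steps up between 3 and 6 h to 57.9 CPM, MRPS18A climbs to 118.03 CPM at 48 h, and MRPL12, MRPL4 and MRPS34 step down between 3 and 6 h.

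Levels per kilobase of transcript, which allow genes to be compared, differed widely between proteins that the particle holds in equal number, apart from the stalk protein MRPL12, which is present in several copies. Averaged over libraries, MRPL20 had 205.6 CPM per kilobase, ahead of MRPL24 with 147.25, MRPL52 with 144.1, MRPL37 with 139.2 and MRPL12 with 113.8. The order differed between libraries: MRPL20 came first in each of the 5 libraries other than 12 h, but MRPL33 was second at 24 and 48 h, with 122.4 and 116.0 CPM per kilobase, and MRPS18A came next at 48 h, with 111.1. MRPL50 had 4.50 CPM per kilobase on average, MRPL35 5.86 and MRPS18C 6.08. The ratio of the highest to the lowest member per kilobase was 107.9 at 0 h, 114.2 at 3 h, 31.0 at 6 h, 35.2 at 12 h, 34.8 at 24 h and 31.4 at 48 h, over 70 members with a length (66 at 12 h); these lengths are of annotated transcripts on another build. Across the 72 members the change at 24 h correlated with the log10 of the mean level at r = -0.45, and at r = 0.14 over all measured genes; genes are not independent replicates.

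The members' changes ran with the GC content of their transcripts. Across the 70 members with a GC value, r between change and GC content was 0.34 at 3 h, -0.80 at 6 h, -0.72 at 12 h (66 members), -0.65 at 24 h and -0.57 at 48 h, and over all measured genes it was 0.23, -0.74, -0.62, -0.51 and -0.56. These are descriptions across genes that share their libraries. The 35 members with a GC content of 50.3% or more had a median change of -0.35 at 24 h and the 35 with less had 0.09; the medians of their levels at 0 h were 68.3 and 31.6 CPM. MRPL12, MRPL4 and MRPS34 have 64.6, 62.05 and 64.8% GC, and MRPL50 and MRPL1 have 34.96 and 39.1%.

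With a lowess curve of change on GC content subtracted, no member was past 2-fold at 6 h (3.8% of genes were higher and 1.56% lower) or 12 h (4.16% and 3.01%), and 1 member was past 2-fold at 24 h, MRPS18A, at 1.37, where 7.08% of genes were higher and 6.58% lower. At 48 h MRPS18A was at 1.56 and MRPL35, of the bacterial set, at -1.10, where 7.15% and 4.82% of genes passed. Past 1.5-fold, MRPL41, MRPS18A and MRPS26 were higher and MRPL35, MRPS25 and MRPS27 lower at 24 h (16.5% and 16% of genes), and 2 were higher and 7 lower at 48 h (16.4% and 14.6%). MRPL12, MRPL4 and MRPS34 stood at -0.48, -0.50 and -0.40 at 24 h and MRPL50 and MRPL1 at 0.20 and 0.07; MRPL42 had no GC value. MRPL24, MRPL23, MRPL28, MRPL37 and MRPS2 stood at -0.43, -0.04, -0.14, -0.33 and -0.25, MRPS28 at 0.36 and MRPS18C at -0.35, which turned its direction. MRPS27, with 46.5% GC, stood at -0.76 at 24 h and -0.94 at 48 h, beside -0.73 and -0.91 without the correction. The members' median after this correction was 0.20 at 3 h, -0.12 at 6 h, -0.04 at 12 and 24 h and -0.20 at 48 h.

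**Figure D4:**
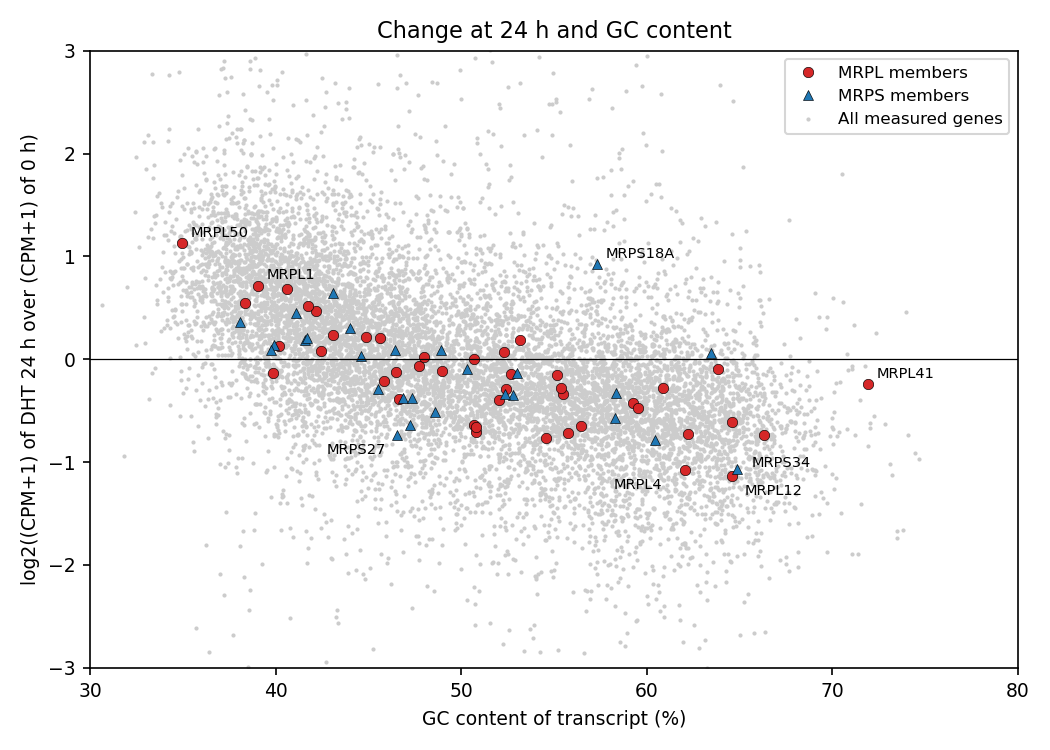
Change at 24 h, as log2((CPM + 1) of DHT over (CPM + 1) of 0 h), against the GC content of the transcript in percent, for 43 MRPL members (circles), 27 MRPS members (triangles) and the other measured genes (grey points; the vertical axis leaves out the most extreme genes). The members slope down with GC content, r = -0.65, and MRPS18A at 57.3% GC and 0.93 lies above the band of the other members.

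Promoters are shown for the 2 members with the largest increase at 24 h, the 2 with the largest decrease and, chosen after its values were seen, MRPS18A. Each is the 250 bases before the annotated start, from RefSeq on GRCh38.p14, on the strand of the gene, 5′ to 3′; capitals mark the motifs found. MRPL42 is chr12:93467264-93467513 (+), MRPL50 chr9:101398619-101398868 (−), MRPS18A chr6:43687792-43688041 (−), MRPL12 chr17:81703117-81703366 (+) and MRPL4 chr19:10251701-10251950 (+).
MRPL42: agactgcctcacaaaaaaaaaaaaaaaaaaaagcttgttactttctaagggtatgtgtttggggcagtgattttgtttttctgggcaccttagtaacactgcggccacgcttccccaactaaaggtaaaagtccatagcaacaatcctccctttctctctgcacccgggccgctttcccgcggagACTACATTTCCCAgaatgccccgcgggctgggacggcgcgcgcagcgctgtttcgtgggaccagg
MRPL50: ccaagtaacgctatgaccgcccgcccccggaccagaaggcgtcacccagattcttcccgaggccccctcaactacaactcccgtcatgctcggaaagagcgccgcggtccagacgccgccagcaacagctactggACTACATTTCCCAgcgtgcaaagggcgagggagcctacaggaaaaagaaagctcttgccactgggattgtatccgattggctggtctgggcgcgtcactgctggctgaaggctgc
MRPS18A: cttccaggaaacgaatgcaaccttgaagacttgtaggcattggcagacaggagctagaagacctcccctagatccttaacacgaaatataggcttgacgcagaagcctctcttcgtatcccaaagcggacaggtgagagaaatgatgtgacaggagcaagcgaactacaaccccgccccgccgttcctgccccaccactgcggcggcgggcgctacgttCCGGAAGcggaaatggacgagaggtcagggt
MRPL12: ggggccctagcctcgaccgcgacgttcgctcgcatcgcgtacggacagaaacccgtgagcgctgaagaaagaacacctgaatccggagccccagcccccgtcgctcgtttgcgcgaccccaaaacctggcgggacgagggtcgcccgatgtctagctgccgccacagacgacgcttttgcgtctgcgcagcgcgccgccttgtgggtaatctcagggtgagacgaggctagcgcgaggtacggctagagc
MRPL4: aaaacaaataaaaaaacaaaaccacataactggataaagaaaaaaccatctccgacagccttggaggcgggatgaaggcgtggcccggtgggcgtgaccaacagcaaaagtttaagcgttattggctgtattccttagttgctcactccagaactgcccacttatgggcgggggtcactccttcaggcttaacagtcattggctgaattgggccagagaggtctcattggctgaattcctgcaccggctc

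Both MRPL42 and MRPL50 held ACTACATTTCCCA, beginning 65 and 115 bases before the start. This is a core of the site known for the factor ZNF143 and was searched, with any base in place of the first 2 of its 3 consecutive Ts, only after these sequences were seen. The motif was in 5 of the 65 members' promoters at hand (7.69%) and in 1.40% of 27305 promoters. The 5 include MRPL42 and MRPL50, whose sequences prompted the search, so the members' share is raised by that choice and shows no excess. The other 3 were MRPL24, MRPS22 and MRPS26, with changes of -0.76, 0.31 and 0.06 at 24 h, so members with the motif lay on both sides of 0. The ETS motif CCGGAAG, the core bound by GABP, was in 21 of 65 (32.3%) and in 8.82% of all promoters, and in MRPS18A it began 31 bases before the start. AAGATGGCG (YY1) was in 3 (4.62%, against 0.641%), CACGTG (the E-box bound by MYC) in 6 (9.23%, against 6.49%) and the NRF1 consensus in 1 (1.54%, against 1.13%). Both strands were searched, no test was made, and the median GC content of the members' promoters was 60.0%, against 58.0% over all.

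Genes for proteins of the cytosolic ribosome had lower median changes than the mitochondrial ones from 3 h on. Of 76 measured genes 0 rose and 3 fell at 24 h, where 10.8% of genes fell, and 0 rose and 35 fell at 48 h, where 7.33% of genes and 0 of the 72 mitochondrial members fell. Their median changes were 0.07, -0.23, -0.29, -0.61 and -0.96 at 3, 6, 12, 24 and 48 h, beside 0.14, -0.03, 0.06, -0.14 and -0.24 for the mitochondrial members. RPS9 had 324.5 CPM at 24 h against 680.05 CPM at 0 h, RPL13A 1769.0 against 3632 and RPS3 885.5 against 1734 CPM. With GC correction 15 of 73 fell at 48 h, where 4.82% of genes did, and the median was -0.74. TMM scaling left 20 of 76, with the share of all genes not counted. Many of these genes have processed pseudogenes, and the difference between the 2 sets was not tested.

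**Figure D5:**
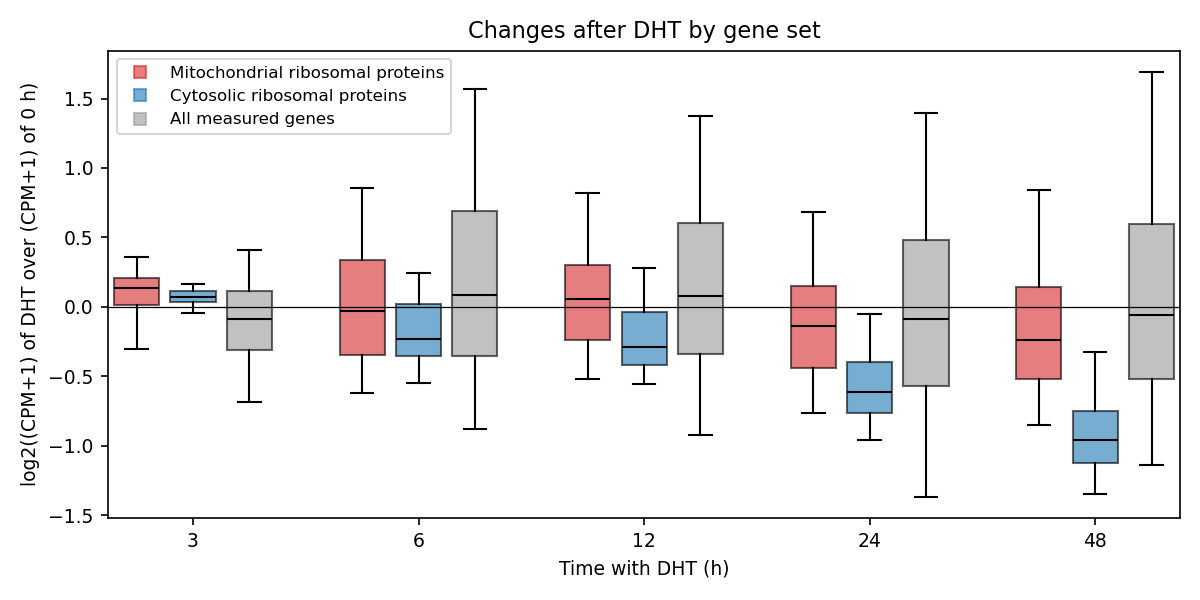
Distribution of the log2 change at each time with DHT for mitochondrial ribosomal proteins (red), cytosolic ribosomal proteins (blue) and all measured genes (grey): line, median; box, quartiles; whiskers, 5th and 95th percentiles. At 48 h the medians are -0.24, -0.96 and -0.06; the median of the mitochondrial set at 24 h, -0.14, is 0.01 with median-of-ratios scaling.

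Other genes of mitochondrial protein synthesis were listed beside the members. The 6 measured mitoribosomal proteins with other symbols had 0 past 2-fold at 24 h, where 10.5% of all genes rose and 10.8% fell. Their median was -0.33: GADD45GIP1, of the large subunit, was at -0.58, the hydrolase ICT1 at -0.36, MRP63 at -0.35 and DAP3, a GTP-binding protein of the small subunit, at -0.32. Of 20 measured assembly genes 2 rose and 1 fell at 24 h, with a median of -0.34, beside 10.5% and 10.8% of all genes, so the rise was near the background. GTPBP10, a GTPase of large-subunit assembly, had 26.4 CPM at 24 h against 11.5 CPM at 0 h and FASTKD2, which binds the large ribosomal RNA, 38.2 against 17.2 CPM. MRM1, a methyltransferase of that RNA, fell to 6.41 CPM at 24 h, against 16.5 CPM at 0 h. After GC correction they stood at 0.25, 0.49 and -0.63, short of 2-fold, and C4orf14 (a GTPase now named NOA1), on chromosome 4, was at -0.76 before it and -0.44 after. GADD45GIP1 and ICT1 stood at -0.06 and -0.15 after it.

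Of 17 measured translation factors 0 passed 2-fold at 24 h, where 10.5% of all genes rose and 10.8% fell. Their median at 24 h was -0.16, and at 48 h 1 rose and 1 fell, beside 15% and 7.33% of all genes. TUFM, the elongation factor that delivers aminoacyl-tRNA, had 508.65, 553.2, 330.9, 325.3, 265.8 and 250.6 CPM and fell at 48 h, with a change of -1.02. Its exchange factor TSFM was at -0.73 at 24 h. GFM1, the translocase, was at 0.57 at 24 h and rose to 98.1 CPM at 48 h, against 46.7 CPM at 0 h, and C12orf65, a release factor, was at 0.52 at 24 h. With GC correction TUFM, TSFM, GFM1 and C12orf65 were at -0.48, -0.79, 0.12 and 0.73 at 24 h. Of 19 measured genes of mitochondrial transcription and RNA processing 0 passed 2-fold at 24 h, beside the same 10.5% and 10.8% of all genes. Their median was 0.16: MTERF was at 0.79, the RNA polymerase POLRMT at -0.76, the nuclease PNPT1 at 0.76 and RG9MTD1, of mitochondrial RNase P, at 0.74. With GC correction these 4 were at 0.07, -0.06, 0.26 and 0.10.

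Of 9 measured regulators of mitochondrial gene expression, 1 fell at 24 h and 0 rose, beside 10.8% and 10.5% of all genes. MYC had 397.95, 162.9, 119.7, 120.4, 65.7 and 124.4 CPM, 0.165 times the 0 h level at 24 h (0.155 to 0.175). PPARGC1B, a coactivator, was at -0.88, the nuclear receptor ESRRA at -0.65 and GABPA, the DNA-binding subunit of GABP, at 0.68. With GC correction MYC was at -2.27, PPARGC1B at -0.72, ESRRA at -0.01 and GABPA at -0.25, so that the direction of GABPA turned. PPARGC1A was not measured, with at most 0.779 CPM in the 5 libraries used. MYC was below 0 h by 2-fold at every time, whereas the members' median was above 0 h at 3 h, and whether the 2 are linked was not tested.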

How the data were processed

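Total RNA from 6 LNCaP libraries was sequenced on an Illumina GAIIx, per the labels' protocols. The deposited table gives counts per transcript and, made by the authors, RPM values, reads scaled to a library's size, which matched count over a deposited denominator within 0.01 for 97.42 to 98.38% of values. The submitters' processing notes name build hg19; the aligner, counting tool and strand setting were not stated there or in the labels. Of 18051 lines, 50 repeats were removed, lines of a symbol were added, and genes with a mean count of 20 or more were kept; 679 lines have no symbol. Counts were scaled to CPM over listed transcripts, with a pseudocount of 1 CPM. With 1 library per group no test was made; 2-fold was the fixed size and 1.5-fold a second one. Ratios have exact conditional binomial 95% intervals. These and the floor of 3 counts cover counting error only, since no molecular identifiers are named. GC content and length came from GENCODE release 29, for 93.47% of measured genes, and the GC trend from a lowess curve of span 0.3. Chromosomes, found for 96.84% of measured genes, pseudogenes and promoters came from RefSeq; only the promoters' GRCh38.p14 coordinates are printed. The tools were Python 3.11.15, numpy 2.4.6, pandas 2.3.3, scipy 1.17.1, statsmodels 0.14.6 and matplotlib 3.10.9, and the scripts were tested on simulated data.

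Members, lists and rules were chosen with earlier results of these data known. Genes named are the 8 members with the largest change each way at 24 h, the 3 each way at the other times, the 5 highest and 3 lowest per kilobase, the MRPS18 and stalk members, members on chromosome 4 or distal chromosome 15, and up to 4 genes of each list; MRPL11, MRPL13, MRPL21, MRPL41, MRPS22, MRPS25, MRPS26, PPARGC1A and the printing of GFM1 at 48 h were chosen after their values were seen. Alternatives were other scalings, pseudocounts, filters, a GC correction, 1 line per symbol and a 3 h base.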

Additional observations from a re-analysis of the deposited data

How the results depend on the processing

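No paired analysis was possible because each group had 1 library, and for the same reason no replicate could be left out. Of 297 alternative values of 30 results, 241 were labelled the same and 56 moved, and the cause of the moves was not tested. Members have at most 1 line each and mean counts of 135.3 or more. The count filters and the run with 1 line per symbol therefore left the members' own counts unchanged. In each of these runs all 30 results were labelled the same, so these labels are no check of the members' values. A count was the same within 1.5 times and a summed level within its counting interval. A median was the same within the median counting interval of its single genes, which is not the counting error of a median. Some medians changed sign: that of the members at 24 h was -0.14 in CPM and positive with median-of-ratios or TMM scaling. With the GC trend removed, members past 2-fold were 0 higher at 6 h, 0 higher at 12 h, 1 higher and 0 lower at 24 h and 1 higher and 1 lower at 48 h, and past 1.5-fold 3 and 3 at 24 h and 2 and 7 at 48 h. The 24 h medians were then -0.21 for other-symbol proteins, -0.0161 for assembly, -0.0649 for transcription and -0.42 for cytosolic ribosomal proteins, of which 15 fell at 48 h. A 1.5-fold threshold gave 10 and 7 at 6 h, 10 and 4 at 12 h, 6 and 15 at 24 h and 11 and 16 at 48 h. Against the 3 h library, chosen after seeing the data, 5 were higher at 6 h and 7 lower at 48 h. The median of all genes was then 0.12 at 6 h and 0.01 at 48 h. The share of all genes called was not counted for this base, the pseudocount of 5 CPM, or median-of-ratios and TMM scaling. A pseudocount of 5 CPM left 1 higher at 24 h and 2 at 48 h. Median-of-ratios and TMM scaling gave 2 and 1 members lower at 6 h, 0 and 0 lower at 24 h, members' 24 h medians of 0.009 and 0.0349, and 10 higher and 5 lower past 1.5-fold at 24 h under both; TMM gave 10 lower at 48 h. In the same order the 24 h medians were 0.0001 and 0.0265 for the large subunit, 0.0587 and 0.085 for the small one, -0.18 and -0.16 for other-symbol proteins, -0.10 and -0.0767 for regulators and -0.46 and -0.43 for cytosolic ribosomal proteins, of which 22 and 20 fell at 48 h. TMM alone moved assembly to -0.16 and translation factors to 0.0178. The summed level was 0.915 and 0.933 at 24 h and 0.868 and 0.89 at 48 h. Of 26 named members, 19 had the same sign at 24 h in every alternative run made for them and 7 did not: MRPL15, MRPL19, MRPL35, MRPL54, MRPS11, MRPS18C and MRPS31. Pseudocounts and count filters could not turn a member's sign, and 1 line per symbol changed only the library totals. The scalings and the GC correction were the runs that could. MRPL42, without a GC value, had 8 runs where the others had 9.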

Other observations

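RefSeq lists at least 1 pseudogene for 39 of the 72 members, among them MRPL42 and MRPS18C with 6 each. These 39 had a median change of -0.12 at 24 h with 3 at least 1.5-fold lower, and the 33 without had -0.28 with 12 lower, where 24.2% of all genes were lower. With GC correction, over 37 and 33 genes with a GC value, the medians were -0.10 and -0.02, in the opposite order. The counts were then 2 and 1, where 16% of genes were lower. Median GC content was 48.6% and 52.4%. The part of pseudogene reads in these values was not tested.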
